A study of Mus musculus with 4 samples.

Results

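The 150 cells described here were the sterol and lipid synthesis-high cells of the fat P2 library, selected on the summed UMIs (unique molecular identifiers, which count captured RNA molecules) of Hmgcs1, Fasn, Elovl6 and Hsd17b7. They were the 150 barcodes with the highest sum per 10000 UMIs of the barcode, out of 7191 barcodes that had no fewer than 2000 UMIs and 500 genes and no more than 10% mitochondrial UMIs. The other 7041 kept barcodes of the library served as the comparison, and all 4 libraries of the series held 9624 barcodes that passed the filters. The series measured sorted vessel progenitor cells of C57BL/6 mice by droplet-based RNA sequencing from the 3′ ends of transcripts, with 1 library each for a P2 and a P1 population of fat and of lung. By their sort gates, P2 cells lacked CD45, Ter119 and CD31, carried Tie2 and PDGFRa, and were low for CD105 and high for Sca1, whereas P1 cells lacked PDGFRa, carried Tie2 and CD31, and were high for CD105 and low for Sca1. The members and their comparison cells therefore share strain, tissue, gate and library. The sources used here do not state how many animals were pooled, or their age and sex. With 1 library, cells are not replicates, so no test was run: levels are CPM (UMIs of a gene per 1000000 UMIs of the group) with exact Poisson 95% intervals, and shares carry exact Clopper-Pearson 95% intervals, both of which cover counting error only.

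Cells build cholesterol from acetyl-CoA through the mevalonate pathway, in which HMG-CoA synthase (Hmgcs1) acts early and a long series of sterol-modifying enzymes acts late. When sterol in the endoplasmic reticulum is scarce, the escort protein Scap carries the precursors of the SREBP transcription factors (from Srebf2 and Srebf1) to the Golgi, where proteases release the active factors, and the Insig proteins hold Scap back when sterol is plentiful. SREBP factors are known to raise cholesterol synthesis and fatty acid synthesis genes together, with nuclear factor Y bound at CCAAT boxes beside their own sites. In the stroma of mouse fat, interstitial progenitors marked by Pi16 and Dpp4 are known to give rise to committed preadipocytes marked by Icam1 and Pparg.

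Promoters of the 4 rule genes and of Idi1, whose enzyme isomerises isopentenyl diphosphate, are shown because these genes were high in the same cells. Each runs 5′ to 3′ from 250 bases before to 50 bases after the start (RefSeq, GRCm38.p6). Capitals mark matches, on either strand, to the SRE letters TCACNCCAC or to CCAAT, which reads ATTGG on the other strand.
Hmgcs1, chr13:119690101-119690400, plus strand: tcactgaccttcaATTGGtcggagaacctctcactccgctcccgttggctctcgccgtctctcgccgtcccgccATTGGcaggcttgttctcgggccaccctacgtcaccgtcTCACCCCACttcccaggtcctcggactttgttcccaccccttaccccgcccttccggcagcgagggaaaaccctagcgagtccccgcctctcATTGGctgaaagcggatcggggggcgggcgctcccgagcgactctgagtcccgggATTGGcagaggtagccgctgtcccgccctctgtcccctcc
Hsd17b7, chr1:169969156-169969455, minus strand: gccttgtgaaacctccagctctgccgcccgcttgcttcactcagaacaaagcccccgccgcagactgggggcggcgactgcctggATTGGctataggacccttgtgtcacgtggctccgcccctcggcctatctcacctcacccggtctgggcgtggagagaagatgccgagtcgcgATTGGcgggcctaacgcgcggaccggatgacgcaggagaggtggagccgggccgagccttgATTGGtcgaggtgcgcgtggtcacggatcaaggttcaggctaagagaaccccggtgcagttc
Fasn, chr11:120824498-120824797, minus strand: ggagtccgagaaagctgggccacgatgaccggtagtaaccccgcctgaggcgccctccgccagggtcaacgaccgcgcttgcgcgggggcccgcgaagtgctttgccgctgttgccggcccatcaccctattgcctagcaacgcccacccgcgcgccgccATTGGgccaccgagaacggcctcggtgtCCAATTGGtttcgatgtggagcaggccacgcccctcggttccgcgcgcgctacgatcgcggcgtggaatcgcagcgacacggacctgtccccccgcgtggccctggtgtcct
Elovl6, chr3:129532136-129532435, plus strand: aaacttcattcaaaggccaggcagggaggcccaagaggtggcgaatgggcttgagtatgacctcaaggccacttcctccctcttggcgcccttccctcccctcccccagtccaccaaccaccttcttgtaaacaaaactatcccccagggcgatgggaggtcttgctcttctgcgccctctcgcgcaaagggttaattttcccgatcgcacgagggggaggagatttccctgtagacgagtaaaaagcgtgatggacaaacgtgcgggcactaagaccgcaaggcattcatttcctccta
Idi1, chr13:8885356-8885655, plus strand: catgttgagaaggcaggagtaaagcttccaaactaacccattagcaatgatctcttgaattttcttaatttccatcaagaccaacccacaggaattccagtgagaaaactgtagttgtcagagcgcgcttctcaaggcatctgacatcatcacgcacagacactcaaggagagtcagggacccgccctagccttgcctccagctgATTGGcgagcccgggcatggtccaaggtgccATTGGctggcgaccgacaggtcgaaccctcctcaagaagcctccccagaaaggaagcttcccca

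Hmgcs1 had 1 SRE match, beginning 137 bases before the start, and 4 CCAAT matches. Hsd17b7 had 3 CCAAT matches and Fasn had 3, of which a pair shares bases. Idi1 had 2 CCAAT matches, and Elovl6 had no match in this window. Of the 20 listed cholesterol synthesis genes, 15 had an entry and 14 of them (93.3%) held CCAAT, against 41.1% of all 27025 genes with an entry. The share was 70.6% of 17 fatty acid genes (12 genes), 66.7% of 15 sterol sensing genes (10 genes), 57.1% of 7 preadipocyte markers (4 genes) and 44.4% of 9 interstitial progenitor markers (4 genes). The SRE letters occurred in 1 of the 15 cholesterol genes (Hmgcs1), in 0 genes of the other lists and in 1.44% of all genes. The palindromic E-box CACGTG occurred in 3 of the 15 cholesterol genes (20%) and in 8.09% of all genes. It occurred in 3 of 15 sterol sensing genes (20%) and 2 of 17 fatty acid genes (11.8%). No preadipocyte or interstitial progenitor marker with an entry held it. CCAAT is short and common, the genes with an entry are not all of each list, and a match of letters does not show that a factor binds there.

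Because the 4 rule genes chose the members, their levels describe the choice. Hmgcs1 (chr13:119690379-119708260, plus strand, GRCm38) had 1747 CPM in members and 144 CPM in the other cells. Fasn, the fatty acid synthase (chr11:120805846-120824547, minus strand), had 280 CPM in members and 60.9 CPM in the others. Elovl6, which lengthens saturated fatty acids (chr3:129532355-129638495, plus strand), had 206 CPM in members and 44.1 CPM in the others. Hsd17b7, a late sterol reductase (chr1:169949535-169969241, minus strand), had 142 CPM in members and 20.3 CPM in the others. Hmgcs1 gave 73.6% of the members' rule UMIs, was present in all 150 and outnumbered the other 3 genes together in 127 members (84.7%). The rule sum was therefore mostly a reading of Hmgcs1. All 4 rule genes had a UMI in 39 members, 3 in 63, 2 in 29 and 1 in 19. The score ran from 17.00 to 49.46 UMIs per 10000 in members, with a median of 21.7, and had a median of 1.67 in the other cells, of which 2832 stood at 0. The last member inside had a score of 17.00 (8 rule UMIs of 4706) and the first cell outside had 16.98 (4 of 2356), so the edge is not a gap.

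Depth was alike on both sides of that edge. Members had 5586 UMIs and 2259 genes per cell at the median, against 5406 UMIs and 2161 genes in the others. The mitochondrial share was 2.87% in members and 2.88% in the others at the median. Summed counts were 879716 UMIs for members and 41678475 for the others, so a gene with 0 UMIs in members could stand at up to 3.41 CPM (3 counts). Over 3503 genes at 50 CPM or more in either group, without the rule genes, 75 (2.14%) were at least 2-fold higher in members and 70 (2.0%) at least 2-fold lower, on a ratio with 10 CPM added to both sides. Gene lists were read from 20 CPM, where 100 of 6786 genes (1.47%) were past 2-fold higher and 106 (1.56%) past 2-fold lower. The median log2 ratio of all genes was 0.03.

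The remaining cholesterol synthesis enzymes were high in the members almost without exception. Of 18 enzymes that the rule did not use, 17 were measured and 16 were at least 2-fold higher in members, with a median log2 ratio of 2.01 and a range from 0.57 to 2.44. Their summed level, with the 1 enzyme below 20 CPM (Tm7sf2), was 3422 CPM (3300 to 3546) in members and 705 CPM in the others. Of the 15 genes with the highest ratios in the library, 11 belonged to this list. Early in the pathway, Acat2, which joins acetyl-CoA units, had 65.9 CPM (50.1 to 85.2) in members and 17.2 CPM in the others. The member interval did not reach the level of the other cells. The mevalonate kinases and decarboxylase followed the same direction. Mvk had 118 CPM in members and 34.5 CPM in the others, Pmvk had 122 CPM in members and 22.7 CPM in the others, and Mvd had 125 CPM in members and 15 CPM in the others, the highest log2 ratio among the named genes outside the rule at 2.44.

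In the isoprenoid and squalene steps, Idi1 (chr13:8885501-8892451, plus strand) had 407 CPM (366 to 451) in members and 69.3 CPM in the others. Fdps, which makes farnesyl diphosphate, had 408 CPM in members and 74.4 CPM in the others. Fdft1 (squalene synthase) had 147 CPM in members and 29.3 CPM in the others. Squalene is then oxidised by Sqle, at 239 CPM in members and 44.9 CPM in the others, and closed into lanosterol by Lss, at 59.1 CPM in members and 12.2 CPM in the others. Among the enzymes that trim lanosterol, Cyp51 had 316 CPM (280 to 355) in members and 52.0 CPM in the others. Msmo1, a C4-methyl sterol oxidase, had 504 CPM (458 to 553) in members and 89.6 CPM in the others. Its partner Nsdhl had 133 CPM in members and 25.7 CPM in the others. Among the last steps, Sc5d had 207 CPM in members and 51.8 CPM in the others, and Dhcr7 had 138 CPM in members and 23.8 CPM in the others. Ebp, the sterol isomerase, was the enzyme that stayed under 2-fold, with 105 CPM (84.3 to 128) in members and 67.3 CPM in the others, a log2 ratio of 0.57.

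**Figure D1:**
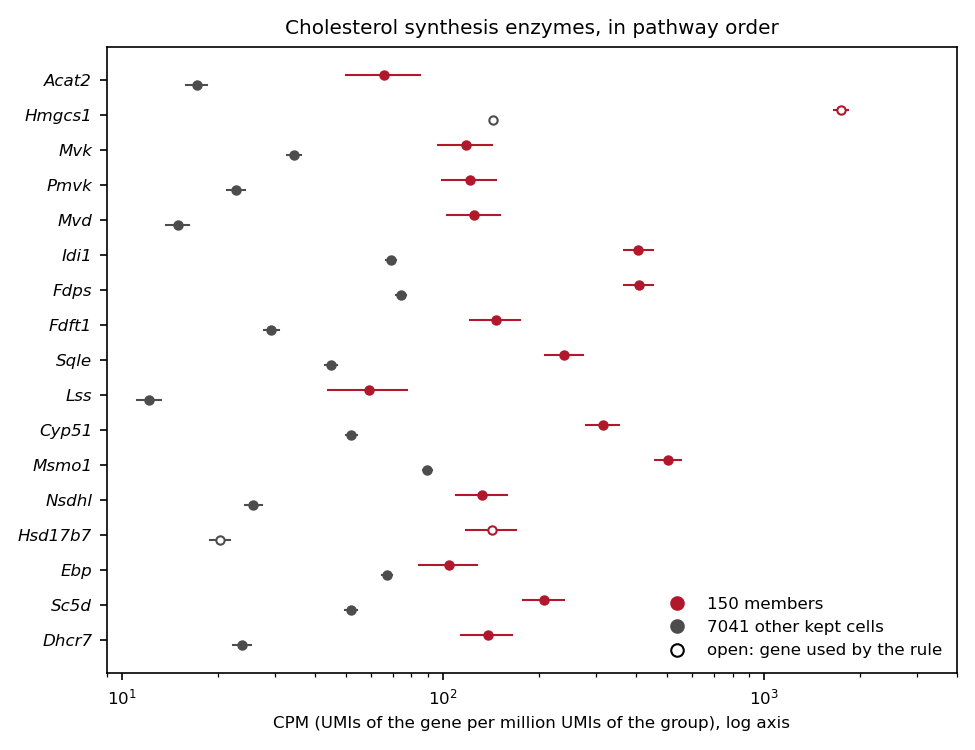
Levels of cholesterol synthesis enzymes, in pathway order, in the 150 members (red) and the 7041 other kept cells (grey), as CPM on a log axis with exact Poisson 95% intervals as bars; open points are the 2 genes that the rule used. Red points lie right of grey ones for every enzyme drawn, and the closest pair is Ebp, with 105 CPM in members and 67.3 CPM in the others.

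The pattern was spread over the members. Per cell, the 18 enzymes outside the rule had from 0 to 120 UMIs per 10000 in members, with a median of 30.8, and from 0 to 62.1 in the other cells, with a median of 4.53. The ranges overlap, but 146 of 150 members (97.3%) lay above the other cells' median and 125 (83.3%) above their 90th percentile. After each cell was thinned to 2000 UMIs, which left no kept cell out, Idi1 had a UMI in 61.3% of members (53.0 to 69.2) and in 11.3% of the others (10.6 to 12.1). Unthinned, these shares were 80.7% of members and 24.6% of the others. In the 10 barcodes with 5 or more endothelial markers (median 9156 UMIs), a check on free RNA, Idi1 had a UMI in 0 after thinning (0 to 30.8%) and in 20% before it. Those 10 barcodes are too few to set the background level. No measured enzyme of the list had more than 7.69% of its members' UMIs in 1 cell.

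Each rule gene was also read in 150 cells ranked by the other 3 rule genes alone. All 4 were at least 2-fold higher in cells chosen without them. Hmgcs1 had 811 CPM (746 to 879) in the chosen cells and 167 CPM in the remaining 7041, although only 54 of the 150 cells were members. Fasn had 224 CPM (194 to 258) in chosen cells and 62.0 CPM in the rest. Elovl6 had 159 CPM (134 to 188) in chosen cells and 45.0 CPM in the rest, and Hsd17b7 had 107 CPM (86.9 to 132) in chosen cells and 21.0 CPM in the rest. The cells chosen without Fasn, Elovl6 and Hsd17b7 shared 133, 135 and 137 of 150 with the members. Those 3 readings are therefore largely of the members again. The sterol and fatty acid sides also tracked each other when split. In 150 cells ranked by Hmgcs1 and Hsd17b7, Fasn had 201 CPM in the chosen cells and 62.4 CPM in the rest, and Elovl6 had 139 CPM in the chosen cells and 45.4 CPM in the rest. This choice shared 124 cells with the members. In 150 cells ranked by Fasn and Elovl6, Hmgcs1 had 683 CPM in the chosen cells and 169 CPM in the rest, and Hsd17b7 had 85.3 CPM in the chosen cells and 21.7 CPM in the rest. This last choice shared 47 cells with the members (31.3%) and drew on shallower cells, with a median of 4310 UMIs against 5429 in the rest. It still placed 16 of 17 cholesterol enzymes past 2-fold, with a median log2 ratio of 1.65.

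**Figure D2:**
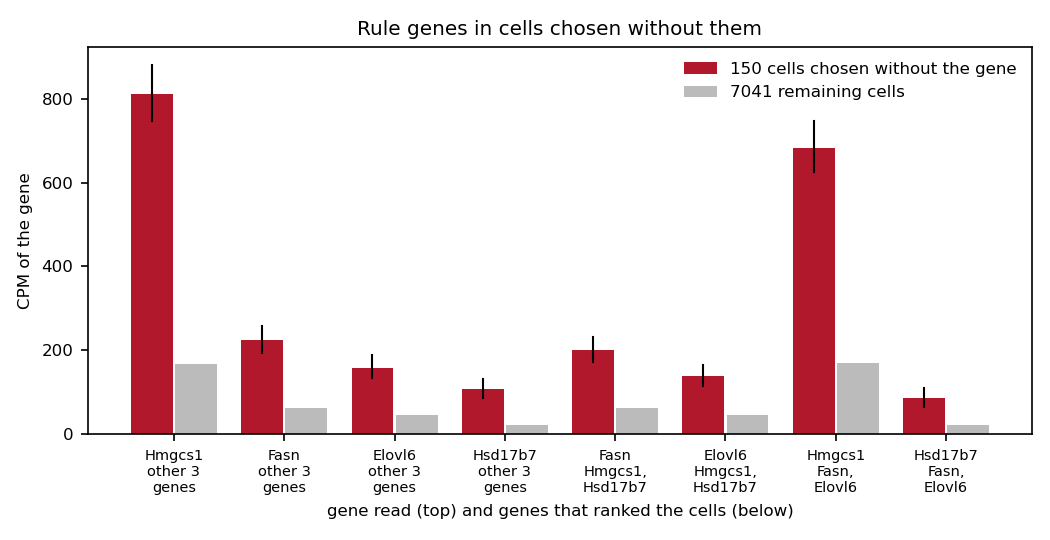
CPM of each rule gene in the 150 cells chosen without it (red, with exact Poisson 95% intervals) and in the remaining 7041 cells (grey). Under each gene stand the genes that ranked the cells; in all 8 pairs the red bar is higher, by 2.69 to 4.65 times on CPM with 10 added.

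Genes that sense or import sterol were a mixed group, with 4 of 17 measured at least 2-fold higher, 0 at least 2-fold lower and a median log2 ratio of 0.30. Stard4, a cytosolic sterol carrier, had 134 CPM (111 to 161) in members and 28.8 CPM in the others. Insig1, the feedback brake on Scap, had 236 CPM (205 to 271) in members and 82.3 CPM in the others, and Srebf2 had 215 CPM (185 to 248) in members and 88.4 CPM in the others. Stard4, Insig1 and Srebf2 are known SREBP targets, as are some genes of this list that stayed under 2-fold, and SREBP activity was not tested. Srebf1 had 103 CPM in members and 82.3 CPM in the others, and Scap had 31.8 CPM in members and 24.1 CPM in the others, both with a log2 ratio of 0.30. Insig2 went the other way, with 38.6 CPM (26.8 to 54.0) in members and 59.8 CPM in the others. Mbtps1, a Golgi protease that cuts SREBP precursors, had 89.8 CPM in members and 107 CPM in the others. Genes that act on sterol in lysosomes stayed under 2-fold. Npc1 had 29.6 CPM in members and 38.3 CPM in the others, and Npc2 had 477 CPM in members and 520 CPM in the others. Lipa had 48.9 CPM in members and 48.4 CPM in the others. The receptors Lrp1 and Vldlr also stayed under 2-fold, with Lrp1 at 799 CPM in members and 685 CPM in the others and Vldlr at 89.8 CPM in members and 95.9 CPM in the others. Tmem97, which binds Npc1, had 65.9 CPM in members and 29.9 CPM in the others, just under 2-fold with 10 CPM added, at 0.93. Scarb1, Lpin1 and Rdh11 lay between 0.30 and 0.78 on the log2 scale, and Mbtps2 and Stard5 were below 20 CPM in both groups.

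Fatty acid synthesis and desaturation genes were higher by smaller steps. Of 12 measured genes outside the rule, 6 were at least 2-fold higher in members and 0 lower, with a median log2 ratio of 0.97, and the summed list stood at 2375 CPM in members and 1073 CPM in the others. The acetyl-CoA suppliers Acss2 and Acly had 94.3 and 264 CPM in members, against 25.2 and 99.4 CPM in the others. Acsl3, which activates long-chain fatty acids, had 135 CPM in members and 39.5 CPM in the others. Mid1ip1, which promotes assembly of acetyl-CoA carboxylase, had 89.8 CPM in members and 30.6 CPM in the others. The desaturases Scd2 and Fads1 had 888 and 198 CPM in members, against 383 and 91.0 CPM in the others. Scd1 had 332 CPM (295 to 372) in members and 174 CPM in the others. Acaca had 73.9 CPM in members and 35.5 CPM in the others. With 10 CPM added, Scd1 and Acaca stayed under 2-fold, at log2 ratios of 0.89 and 0.88. Elovl1, Elovl5 and Slc25a1 had log2 ratios from 0.56 to 0.71, and Me1, the malic enzyme, had 27.3 CPM in members and 29.1 CPM in the others. Acacb, Elovl7, Fads2, Fads3, Thrsp and Pnpla3 were below 20 CPM in both groups. Per cell the list had a median of 22.4 UMIs per 10000 in members and 8.86 in the others, and 81 members (54.0%) lay above the others' 90th percentile. When Fasn and Elovl6 alone ranked the cells, 3 of the 12 were past 2-fold.

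Other branches of lipid handling mostly stayed under 2-fold. So did genes at large, with 1.47% of all genes at 20 CPM past 2-fold higher and 1.56% lower. Of 8 measured sterol efflux and LXR target genes, 0 were past 2-fold in either direction, with a median log2 ratio of -0.02. Of these ratios 4 were positive and 4 negative, and the whole list summed to 1785 CPM in members and 1387 CPM in the others. Lpcat3 had 116 CPM (94.5 to 141) in members and 60.9 CPM in the others, the highest log2 ratio of the list at 0.83. The exporter Abca1 had 69.3 CPM in members and 102 CPM in the others, and Mylip, a ubiquitin ligase gene, had 44.3 CPM (31.5 to 60.6) in members and 80.6 CPM in the others. Soat1, which esterifies cholesterol, had 62.5 CPM in members and 36.3 CPM in the others. Among 10 triglyceride and phospholipid synthesis genes, Pcyt2 of phosphatidylethanolamine synthesis was at least 2-fold higher, with 136 CPM (113 to 163) in members and 43.6 CPM in the others. Of 7 lipid droplet and lipolysis genes, Mgll, the monoglyceride lipase, was at least 2-fold lower, with 39.8 CPM (27.7 to 55.3) in members and 105 CPM in the others. Plin2, a droplet coat protein, had 185 CPM in members and 90 CPM in the others, at 0.97 on log2 with 10 CPM added. Of 10 fatty acid oxidation genes, 0 were past 2-fold in either direction, and their median log2 ratio was -0.04.

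**Figure D3:**
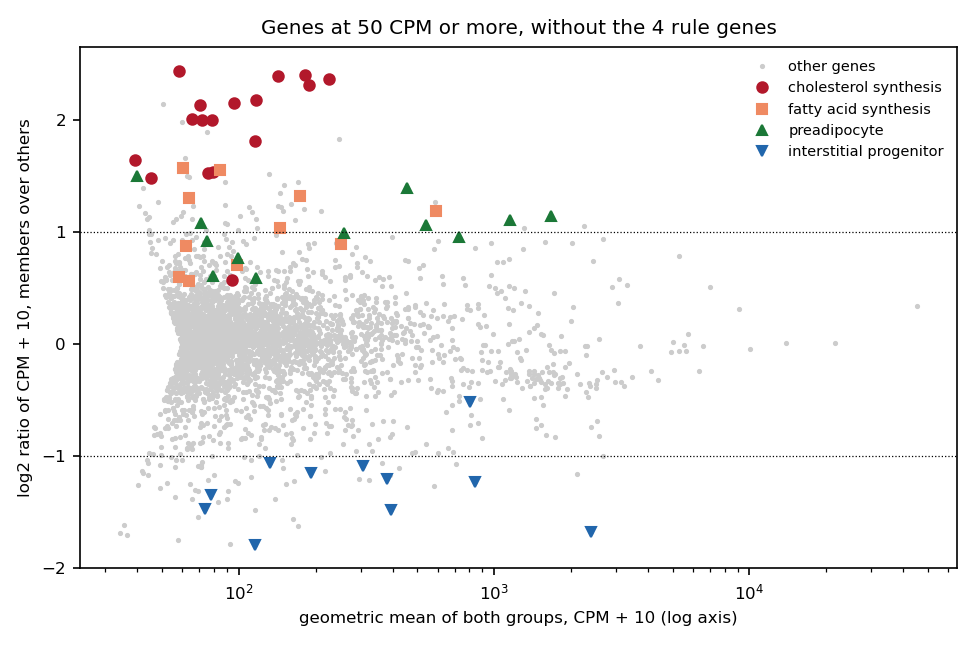
Log2 ratio of members over the other cells (CPM + 10) against level for the 3503 genes at 50 CPM or more, with 4 gene lists in colour and dotted lines at 2-fold. Most cholesterol enzymes (circles) lie near the top of the plot, among other genes such as Arc at 2.14, and Ebp lies lower at 0.57. Fatty acid genes (squares) and preadipocyte markers (upward triangles) lie around the upper line, and interstitial progenitor markers (downward triangles) lie below 0.

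Of the 75 genes past 2-fold higher, 26 came from the cholesterol, sterol sensing and fatty acid lists and 37 from none of the lists. Among those 37, Erg28, a scaffold for the enzymes that remove sterol C4 methyl groups, had 211 CPM in members and 67.3 CPM in the others, and Aacs, which makes acetoacetyl-CoA for lipid synthesis, had 96.6 CPM in members and 25.5 CPM in the others. Erg28 and Aacs were picked out after their values were seen. Arc, an activity-regulated gene among the 15 highest ratios, had 95.5 CPM (76.2 to 118) in members and 14.0 CPM in the others, but its UMIs came from 18 members (12%).

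The markers given with the rule beyond the 4 lipid genes did not set these cells apart by the 2-fold size. Cd44, the hyaluronan receptor, had 79.6 CPM (62.0 to 101) in members and 39.9 CPM in the others, a log2 ratio of 0.85. Thy1, a stromal surface protein, had 72.8 CPM (56.0 to 92.9) in members and 40.1 CPM in the others, a log2 ratio of 0.72. H19, an imprinted noncoding RNA, had 50 CPM (36.3 to 67.1) in members and 34.7 CPM in the others, and its member UMIs came from 17 cells. Has2, a hyaluronan synthase, had 35.2 CPM (23.9 to 50) in members and 47.5 CPM in the others, so it was not higher. Over the whole hyaluronan list, 0 of 6 measured genes passed 2-fold in either direction, against 1.47% (higher) and 1.56% (lower) of all genes. The lipid side of the label thus has many genes behind it that the rule did not use, while H19, Thy1, Cd44 and Has2 do not define the cells. Of 9 measured imprinted growth genes, Peg3 alone was past 2-fold, with 264 CPM (231 to 300) in members and 108 CPM in the others.

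Stromal identity was shared by both groups. All 12 fibroblast markers stood at 100 CPM or more in members, and all 150 members had UMIs of at least 3 of them. Pdgfra, a gene of the P2 gate, had 505 CPM (459 to 554) in members and 445 CPM in the others. Ly6a, which encodes Sca1, had 1178 CPM (1107 to 1252) in members and 1951 CPM in the others. Tek, which encodes Tie2, had 81.8 CPM (64.0 to 103) in members and 165 CPM in the others, a log2 ratio of -0.93. Eng, which encodes CD105, had 36.4 CPM in members and 46.5 CPM in the others. Ptprc (CD45) and Pecam1 (CD31) had 0 UMIs in members, and Ptprc had 1.03 CPM and Pecam1 2.18 CPM in the others. The mature adipocyte genes Adipoq, Plin1, Cidec and Retn also had 0 UMIs in members.

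Within the stroma, members stood on the preadipocyte side. Of 12 committed preadipocyte markers, 6 were at least 2-fold higher in members and 0 lower, with a median log2 ratio of 1.02 and summed levels of 7610 CPM in members and 3519 CPM in the others. Pparg, the nuclear receptor that drives fat cell formation, had 56.8 CPM (42.2 to 74.9) in members and 13.7 CPM in the others. Lpl, the lipase that frees fatty acids from lipoproteins, had 2477 CPM (2374 to 2583) in members and 1118 CPM in the others. The basement membrane collagen Col15a1 had 729 CPM in members and 271 CPM in the others, and Col4a1 and Col4a2 had 1689 and 774 CPM in members, against 775 and 366 CPM in the others. The adhesion molecule Vcam1 was the remaining gene past 2-fold, with 93.2 CPM in members and 38.9 CPM in the others. Cxcl14, Col5a3, Aoc3, Icam1, Ggt5 and Fabp4 had log2 ratios from 0.59 to 0.99. Of 10 measured adipogenic factors and adipocyte genes, 3 were past 2-fold higher and 0 lower, namely Pparg, Lpl and Fabp5. Fabp5, a fatty acid binding protein, had 38.6 CPM in members and 12.7 CPM in the others.

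Interstitial progenitor markers went the opposite way: of 12, 10 were at least 2-fold lower in members and 0 higher, with a median log2 ratio of -1.21. Summed, they stood at 3535 CPM in members and 9087 CPM in the others. Pi16, a defining interstitial marker, had 1328 CPM (1253 to 1406) in members and 4287 CPM in the others. Il33, an alarmin cytokine, had 52.3 CPM (38.3 to 69.7) in members and 206 CPM in the others, the lowest ratio among the named genes at -1.79. Sema3c, a secreted guidance cue, had 225 CPM in members and 647 CPM in the others, and the peptidase Dpp4 had 241 CPM in members and 566 CPM in the others. Anxa3 had 539 CPM in members and 1273 CPM in the others. Wnt2, Cd55, Efhd1, Dact2 and Limch1 were the other genes past 2-fold, while Cd248 had a log2 ratio of -0.52 and Bmp7 of -0.78. Other genes among the 15 lowest included Aldh1a3, a retinaldehyde dehydrogenase, with 39.8 CPM in members and 161 CPM in the others. Edn1 (endothelin) had 21.6 CPM in members and 96.4 CPM in the others, and Bmp3 had 10.2 CPM in members and 55.6 CPM in the others.

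Members differed from the other cells in how many lay on each side and also within the progenitor-low side. The progenitor list had a median of 11.7 UMIs per 10000 in members and 98.5 in the others, and 21 members (14.0%) lay above the others' median. The preadipocyte list had a median of 63.7 in members and 12.8 in the others, and 124 members (82.7%) lay above the others' median. The 21 progenitor-high members had the cholesterol enzymes at 2940 CPM and the fatty acid list at 3298 CPM, with progenitor markers at 13832 CPM and preadipocyte markers at 717 CPM. The remaining 129 members had the cholesterol enzymes at 3494 CPM and the fatty acid list at 2237 CPM, with progenitor markers at 1998 CPM and preadipocyte markers at 8640 CPM. Outside the members, the cholesterol enzymes stood at 575 CPM in the 3520 progenitor-high cells and at 828 CPM in the other 3521. Those 3521 progenitor-low other cells had progenitor markers at 3786 CPM and preadipocyte markers at 5887 CPM. High cholesterol enzyme levels thus occurred in members on both sides of the progenitor median.

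**Figure D4:**
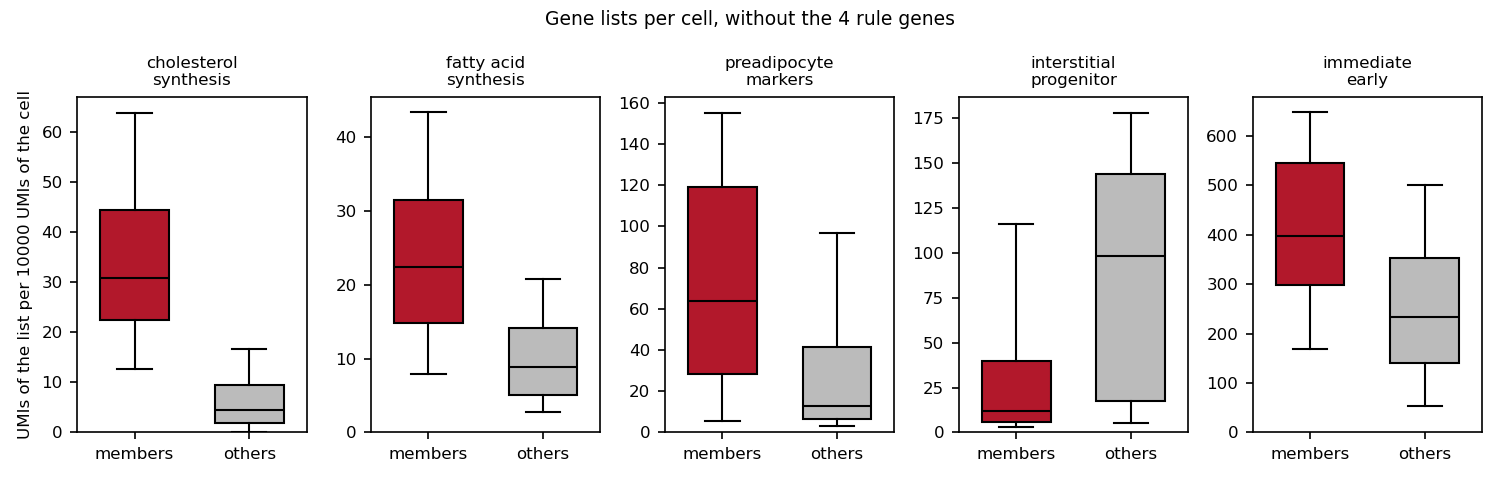
UMIs of 5 gene lists per 10000 UMIs of the cell, without the rule genes, in members (red) and the other cells (grey); boxes span the quartiles with the median as a line, and whiskers run from the 10th to the 90th percentile. The cholesterol boxes do not overlap (medians 30.8 and 4.53), while the members' progenitor median of 11.7 lies below the box of the other cells (17.5 to 144) and within its whiskers.

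The preadipocyte and progenitor counts were not planned in advance and depended on the ranking gene. When Fasn and Elovl6 alone ranked the cells, 0 of 12 preadipocyte markers were past 2-fold higher and 0 of 12 progenitor markers past 2-fold lower, with median log2 ratios of 0.31 and -0.21, and without Hmgcs1 in the ranking of 3 genes both counts were also 0. When the other cells were weighted to the members' spread of progenitor share, which by construction levels the progenitor markers, 0 preadipocyte markers were past 2-fold and the cholesterol count stayed at 16.

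Along the score, the lists moved before the members' edge was reached. The 7191 kept cells were put in 10 bins of 719 or 720 cells by score, and ties at 0 fill the first 3 bins and part of the next. The cholesterol enzymes stood at 405, 363 and 349 CPM in the first 3 bins, which only file order splits. They stood at 564 CPM in the sixth bin, 1210 CPM in the ninth and 1874 CPM in the cells of the tenth that were not members. Among members they stood at 2814 CPM in the 50 lowest scores, 3256 CPM in the middle 50 and 4285 CPM in the 50 highest. The fatty acid list followed to 1763 CPM in the last bin outside the members, but then stood at 2478, 2255 and 2402 CPM in the same 3 groups of members, with no order. Progenitor markers stood at 9509, 10337 and 10108 CPM in the first 3 bins and 6166 CPM in the last bin outside the members. In the same 3 groups of members they stood at 4577, 3443 and 2499 CPM.

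**Figure D5:**
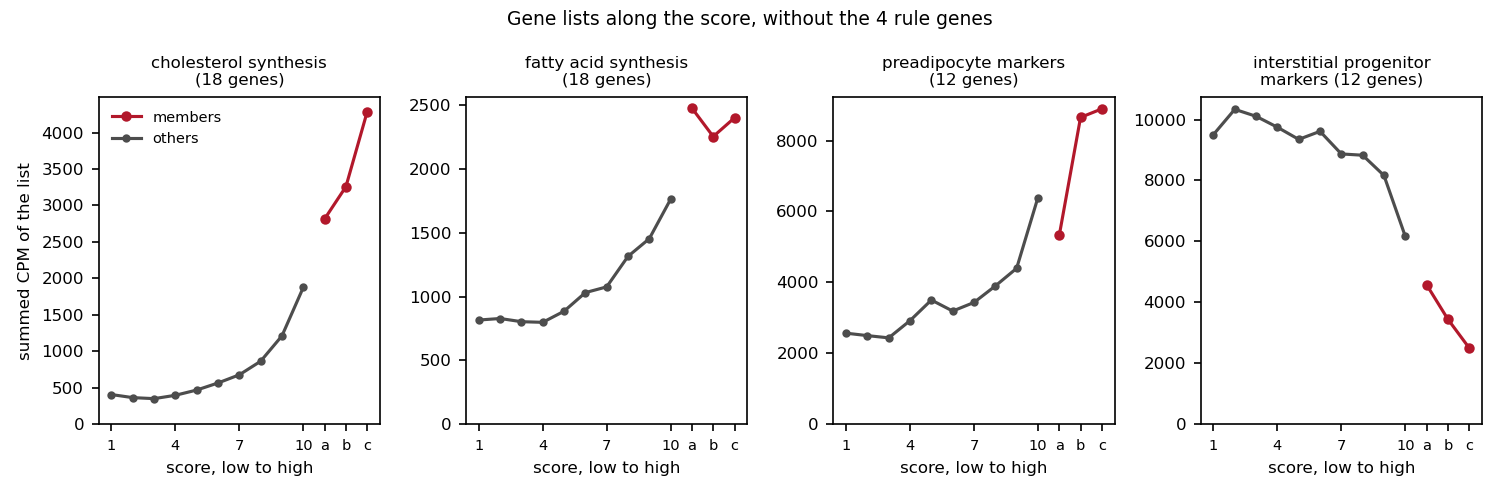
Summed CPM of 4 gene lists, without the rule genes, in 10 bins of the rule score from low to high (grey, the last without members) and in members (red) with the lowest (a), middle (b) and highest (c) 50 scores. The cholesterol line starts at 349 to 405 CPM in the first 3 bins, all at score 0. It climbs to 1874 CPM in the last grey point and on to 4285 CPM in the highest members, and the progenitor line descends to 2499 CPM.

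Immediate early genes, which cells switch on within minutes of a stimulus and which tissue dissociation is known to raise, were also higher in members. Summed over 16 genes they stood at 39794 CPM (39378 to 40213) in members and 26509 CPM in the others, with 2 past 2-fold and a median log2 ratio of 0.52. Egr2 had 95.5 CPM (76.2 to 118) in members and 27.4 CPM in the others, and Ier2 had 1868 CPM in members and 906 CPM in the others. Fos had 8364 CPM in members and 5862 CPM in the others, while Dusp1 had 1125 CPM in members and 1125 CPM in the others. Their level differed along with the preadipocyte side, at 42474 CPM in the 129 progenitor-low members and 21846 CPM in the 21 progenitor-high ones, and at 33141 CPM in the progenitor-low and 19496 CPM in the progenitor-high other cells. With the other cells weighted to the members' immediate early share, 16 of 17 cholesterol enzymes were still past 2-fold, but 1 of 12 preadipocyte and 2 of 12 progenitor markers were. The part of dissociation in these differences was not tested.

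Several other programs did not pass 2-fold. At 20 CPM, 1.47% of all genes were past 2-fold higher and 1.56% lower, so 0 in such short lists does not set them apart. No gene was past 2-fold in either direction among 15 interstitial matrix genes (55028 CPM in members and 52303 CPM in the others), 14 insulin and growth factor signalling genes, 12 unfolded protein response genes, 7 amino acid stress genes under Atf4, 12 glycolysis genes and 8 regulatory stroma markers. Lum, a small proteoglycan, had 2742 CPM in members and 1468 CPM in the others, and Fn1 (fibronectin) had 1979 CPM in members and 3197 CPM in the others, at log2 ratios of 0.90 and -0.69. Atf4 itself had 327 CPM in members and 209 CPM in the others. All 13 measured interferon response genes had negative ratios, from -0.05 to -1.08, and Cxcl10 passed 2-fold lower with 23.9 CPM in members and 61.6 CPM in the others, on UMIs from 9 members. The interferon list was higher where the progenitor list was high, at 2397 CPM in the progenitor-high members and 971 CPM in the rest of the members. No proliferation gene reached 20 CPM in either group, and Mki67, Cdk1 and Ube2c had 0 UMIs in members.

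Markers of other cell types were scarce in the members. UMIs of at least 3 markers of another type were present in 7 of 150 members (4.67%, 1.90 to 9.38) and in 481 of the others (6.83%, 6.25 to 7.45). The sebaceous and skin list alone was met by 3 members and 243 others. Its gene Sbsn was common in the other cells, so this is not a count of cells of another type. The highest Scrublet doublet scores covered 3 members (2.0%) and 471 others (6.69%). The summed endothelial list had 62.5 CPM in members and 46.8 CPM in the others, with Cdh5, Cldn5 and Pecam1 at 0 in members, and Plvap, at 54.6 CPM in members and 19.6 CPM in the others, was the single endothelial gene past 2-fold. Sebaceous and skin epithelium genes, for which lipid synthesis is typical, had 276 CPM in members and 608 CPM in the others, with Krt79, Mc5r, Elovl3 and Awat2 at 0 in members. Most of that sum was Sbsn, with 202 CPM in members and 482 CPM in the others, and Dmkn, with 39.8 CPM in members and 93.0 CPM in the others. Sbsn had a UMI in 25.3% of members and 54.3% of the others, and both genes turned to positive log2 ratios (0.24 for Sbsn and 0.28 for Dmkn) with the other cells weighted to the members' progenitor share. Macrophage, T and NK cell and erythroid lists summed to at most 12.5 CPM in members. Mammary epithelial genes had 56.8 CPM in members and 217 CPM in the others, with the milk genes Csn2 and Lalba at 0 in members. The Schwann list had 188 CPM in members and 83.6 CPM in the others, with most of the members' UMIs in 1 barcode. The mural list had 93.2 CPM in members and 74.6 CPM in the others, the muscle list had 37.5 CPM in members and 18.5 CPM in the others, and the mesothelial list had 11.4 CPM in members and 53.6 CPM in the others. The B cell list had 830 CPM in members and 1006 CPM in the others, nearly all from Ebf1, which stroma also expresses. Without barcodes that carried markers of another type, the cholesterol count was again 16 of 17.

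The other libraries held few cells at the members' level. At or above the lowest member's score were 6 of 778 kept lung P2 cells (0.771%, 0.284 to 1.67), 0 of 1491 cells labelled fat P1 (0 to 0.247%) and 0 of 164 cells labelled lung P1 (0 to 2.22%), against 150 of 7191 fat P2 cells (2.09%). A count of 3 cells, taken as the limit that a count of 0 allows, would be 0.201% of the cells labelled fat P1 and 1.83% of those labelled lung P1. The highest score in lung P2 was 74.0, above the highest member of fat P2 at 49.5. The cholesterol enzymes outside the rule summed to 761 CPM in all kept fat P2 cells, 597 CPM in lung P2, 428 CPM in cells labelled fat P1 and 255 CPM in cells labelled lung P1. The fatty acid list outside the rule was not lower in lung P2, at 1123 CPM against 1100 CPM in fat P2. It stood at 870 CPM in cells labelled fat P1 and 901 CPM in cells labelled lung P1. Median depth per kept cell also differed, with 5410 UMIs in fat P2, 3149 in lung P2, 3496 in cells labelled fat P1 and 2386 in cells labelled lung P1, and its part in the counts was not tested. The tissue labels of the P1 libraries go against tissue markers: Fabp4, abundant in vessels of fat, had 106 CPM in the fat-labelled one and 12847 CPM in the lung-labelled one, and Sftpc of lung epithelium had 792 CPM in the fat-labelled one and 0 in the lung-labelled one. Tissue, gate and library cannot be told apart here, because each combination is 1 library. The fat P2 library shared 54 barcodes with the library labelled lung P1, 8 with that labelled fat P1 and 5 with lung P2, and none of these was a member.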

How the data were processed

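The sorted cells were measured in 4 droplet-based 3′ libraries (10x Genomics), processed with Cell Ranger 3.1.0 against the genome build mm10, per the submitters' processing notes. The deposited matrices hold raw counts, that is UMIs per gene and barcode, and the annotation release is not given in the sources used here. The 31053 gene entries were summed by symbol to 31017. The fat P2 library held 9025 barcodes and 44711105 UMIs, of which the kept 7191 barcodes carried 42558191. UMIs were summed over members and over other cells, and log2 ratios were taken after adding 10 CPM, with numpy 2.4.6, scipy 1.17.1 and pandas 2.3.3. The summing and ratio steps were tested on simulated data. Doublets were not removed, and removal of the 499 highest Scrublet scores (scanpy 1.11.5) was an alternative. The automatic Scrublet threshold marked 1541 of 7898 barcodes (19.5%) and was not used.

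Members and lists were chosen with earlier results of these data known. Named genes were the 8 markers given with the rule, the 15 highest and 15 lowest ratios at 50 CPM or more, without the rule genes and without mitochondrial, ribosomal and unnamed transcripts, all measured cholesterol, sterol sensing and fatty acid genes, the sort gate genes, and up to 4 genes with the largest ratios of each other list. Further list members are given with their list, and Erg28 and Aacs were added later. Some genes of these lists are counted in the lists but not reported by name here. Gene coordinates came from GENCODE on GRCm38, matched by gene ID, and promoters from RefSeq.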

Additional observations from a re-analysis of the deposited data

How the results depend on the processing

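No paired analysis was possible because each group is 1 library. The cholesterol enzyme count was 16 in the main setting and under all 19 alternatives, and all 4 left-out rule genes stayed past 2-fold under the 8 alternatives run for them. The minimum of 20 CPM could not change the cholesterol count, because lists were already read from 20 CPM. The number of genes past 2-fold higher (75) and lower (70) was 117 and 134 with 75 members, 28 and 5 when ranked by Fasn and Elovl6, 246 and 242 at 1.5-fold, 32 and 21 with the others weighted to the members' progenitor share, and 37 and 16 when weighted to the immediate early share. The lower count was also 36 with 300 members, 46 when cells were ranked after thinning to 2000 UMIs, 106 at a minimum of 20 CPM and 126 with no minimum. Both weightings were chosen after seeing the data, and the progenitor and preadipocyte counts were not planned either. The fatty acid count of 6 was 3 when ranked by Fasn and Elovl6 and 10 at 1.5-fold. The progenitor count of 10 was 0 when ranked by Fasn and Elovl6, 6 after thinning, and 0 and 2 under the progenitor and immediate early weightings. The preadipocyte count of 6 was 0 when ranked by Fasn and Elovl6, 12 at 1.5-fold, and 0 and 1 under the same weightings. With 1 CPM added in place of 10, 99 genes were past 2-fold higher and 92 lower. The fatty acid, preadipocyte and progenitor counts were then 7, 8 and 11. Of the log2 ratios, Arc turned to -0.18 when ranked by Fasn and Elovl6, Cxcl10 to 0.20 after thinning, Krt8 to 0.03, Epcam to 0.08 and Krt18 to 0.30 without barcodes with markers of another type, and Sbsn to 0.24 and Dmkn to 0.28 under the progenitor weighting. The cause was not tested, except that a smaller fold or minimum admits more genes, and that 2 settings act on these genes by construction. Krt8, Epcam and Krt18 are among the markers that chose the barcodes left out, of which the mammary list marked 123 others and 0 members. The progenitor weighting levels the progenitor markers. Over 143 named genes and 18 settings, 2181 values stayed within the counting interval of the main value, 386 moved beyond it, and 7 whose main ratio was past 2-fold changed sign. Some values of genes under 2-fold changed sign too. The 2181 include 143 values each for the minimum of 20 CPM and for no minimum, where ratios could not change. Depth limits single genes, since a gene without UMIs in members could stand at up to 3.41 CPM.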
